A study of Arabidopsis thaliana with 8 samples.

Results

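The comparison set the unsalted plants of the Arabidopsis thaliana line T43-11 against the unsalted plants of 3 other lines. Its members were the 4 libraries grown at 0 mM NaCl, of 8 libraries in all: T43-11 with 1 library on one side, and Col-0, Empty vector control and T31-5 with 1 library each on the other. Total RNA came from whole plants. Col-0 is the wild type. Empty vector control expressed VP16 alone, the transcription activation domain of a herpes simplex virus protein. T31-5 and T43-11 each expressed a fusion named 3F-VP16, which the labels describe as giving tolerance to salinity. Age, growth conditions, the promoter of the transgenes and the number of pooled plants are not given in the labels, and each transgenic line is a separate line with no sister line among the libraries. The same 4 lines at 75 mM NaCl served as a scale: they show the level that each gene reached with salt.

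The libraries held 13007480 to 22820814 gene reads with a median of 21362251. Levels are given as CPM, a gene's reads scaled to a total of 1000000 gene reads in its library, and fold changes are log2 values from edgeR fits that also apply TMM scaling factors. Reads on an added row of the tables named T43 stood at 32.5 CPM in T43-11 at 0 mM and at 0 reads in the other 3 unsalted libraries, and reads on another, T31, at 26.8 CPM in T43-11. The sources used here do not say what these rows stand for. No row tests the salt label. The unsalted T43-11 library was almost the same as its partner at 75 mM, with a mean chi-square per gene of 1.42 where counting noise alone would give a value near 1, against 47.3 to 81.5 between it and the unsalted libraries of the other lines. This measure grows with the reads in both libraries and is scaled by library size alone. T43-11 without salt was closer to salted T31-5 and Empty vector control (4.35 and 5.00) than those were to each other (7.68). From salted Col-0 it was further, at 21.5, than salted Empty vector control was, at 14.6. The label is therefore the only record that this library came from plants without salt. Empty vector control and T31-5 at 0 mM were another close pair, at 1.44, and reads on the T31 row did not separate them (4.44 and 4.88 CPM), so T31-5 here means the library so labelled.

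Plants meet high salt as a shortage of water and as an excess of ions. The hormone abscisic acid accumulates, its receptors block PP2C phosphatases, and transcription factors that bind the ABRE element switch on genes for dehydrins, proline synthesis and other protective functions. A partly separate route runs through CBF and DREB factors, which bind the DRE or CRT element and are best known from cold. The circadian clock, in which morning factors such as CCA1 and LHY repress evening genes through the evening element, sets the daily level of many of these genes and of photosynthesis.

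T43-11 without salt had higher levels of most cold-regulated genes, some abscisic acid genes, some jasmonate, anthocyanin and starch genes, and some peroxidases and extensins than the other unsalted lines. It had lower levels of most morning clock and Calvin cycle genes, some heat shock genes and the nitrate reductase NIA1. Phosphate, nitrate and ion transport genes passed in both directions. Of 20585 genes tested, 1335 were higher and 1181 lower in T43-11 by the quasi-likelihood test of edgeR (Benjamini-Hochberg adjusted p up to 0.05), which is 6.49% and 5.74% of the genes. T43-11 has no replicate in this test: the spread comes from the 3 other libraries with 2 residual degrees of freedom, and T43-11 is assumed to vary like them. The labels do not say whether libraries came from separate cultures, so p measures only the spread between these samples, and an exact permutation test of 1 library against 3 cannot go below a p of 0.25. The counts depended on the libraries compared. Leaving out Col-0 gave 4850 higher and 5209 lower genes, leaving out Empty vector control 443 and 313, and leaving out T31-5 505 and 408. They were 468 and 310 when Empty vector control and T31-5 were summed as 1 library. Without TMM factors they were 2467 and 917, and the median of all genes moved to 0.17. Counts for gene groups are also given with the close pair summed where that changed them by more than 1.5 times. In RNA of whole plants, more cells of a type and more RNA per cell cannot be told apart.

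Promoters of 5 genes are shown because their levels carry the comparison: COR15A and KIN1 of the cold list, RD29A and RD20 of the abscisic acid list and LHY of the clock. Each is the 250 bases before the annotated start in RefSeq TAIR10.1, 5′ to 3′ on the strand of the gene. Capitals mark ACGTG, the core of the ABRE, CCGAC, the core of the DRE or CRT, and AAATATCT, the evening element, each on either strand. CACGTG holds ACGTG on both strands, as an overlapping pair.
COR15A, chr2:17712331-17712580, minus strand: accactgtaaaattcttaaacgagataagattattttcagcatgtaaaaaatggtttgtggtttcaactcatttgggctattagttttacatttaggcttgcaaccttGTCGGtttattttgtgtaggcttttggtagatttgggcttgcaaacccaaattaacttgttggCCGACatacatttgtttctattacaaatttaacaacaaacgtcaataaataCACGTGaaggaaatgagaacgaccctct
RD29A, chr5:21240467-21240716, plus strand: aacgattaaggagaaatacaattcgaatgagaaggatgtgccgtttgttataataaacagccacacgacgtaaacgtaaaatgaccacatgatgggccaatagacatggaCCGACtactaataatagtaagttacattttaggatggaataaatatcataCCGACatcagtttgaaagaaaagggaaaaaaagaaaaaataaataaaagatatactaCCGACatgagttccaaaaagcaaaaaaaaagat
KIN1, chr5:5209467-5209716, plus strand: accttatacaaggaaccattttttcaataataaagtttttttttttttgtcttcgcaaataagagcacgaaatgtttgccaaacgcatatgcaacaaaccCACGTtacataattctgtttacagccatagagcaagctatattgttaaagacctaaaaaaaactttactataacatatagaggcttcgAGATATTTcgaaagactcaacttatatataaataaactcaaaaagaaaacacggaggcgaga
RD20, chr2:14146556-14146805, minus strand: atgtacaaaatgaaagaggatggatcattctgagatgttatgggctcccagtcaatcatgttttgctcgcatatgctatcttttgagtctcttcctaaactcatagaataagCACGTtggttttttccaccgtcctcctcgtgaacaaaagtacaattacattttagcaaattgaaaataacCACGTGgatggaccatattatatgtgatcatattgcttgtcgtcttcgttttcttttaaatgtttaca
LHY, chr1:37872-38121, minus strand: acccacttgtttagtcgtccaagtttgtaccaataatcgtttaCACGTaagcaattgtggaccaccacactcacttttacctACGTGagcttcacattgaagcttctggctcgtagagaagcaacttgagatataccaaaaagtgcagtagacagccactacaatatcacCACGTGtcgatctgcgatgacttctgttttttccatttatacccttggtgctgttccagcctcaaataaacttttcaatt
These letters are common: ACGTG is in 22.9%, CCGAC in 12.0% and AAATATCT in 4.79% of the same windows of all 27437 nuclear protein-coding genes. In the cold list the shares were 42.9%, 35.7% and 14.3% of 14 genes, and in the abscisic acid list 62.1% of 29 genes held ACGTG. The clock lists held it as often, in 69.2% of 13 morning genes and 64.3% of 14 day and evening genes. A match describes the letters and does not show that a factor binds there.

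The cold-regulated and dehydrin genes stood out among the lists in size. COR15A (AT2G42540), which encodes a chloroplast protein that protects membranes during freezing, was at 1.206, 1.338 and 1.104 CPM in unsalted Col-0, Empty vector control and T31-5 and at 46.3 CPM in unsalted T43-11. The 3 other lines lay close together, and T43-11 stood far above them. It also lay above the salted libraries of the same lines, at 11.4 CPM in Col-0, 37.5 CPM in Empty vector control and 38.3 CPM in T31-5. The difference was 5.08 ± 0.14 (SE; edgeR adjusted p = 0.000417). KIN1 (AT5G15960), a small protective protein of cold and drought, went from 1.48, 1.66 and 1.52 CPM in the other lines to 17.7 CPM in T43-11, a difference of 3.34 ± 0.16 (edgeR adjusted p = 0.00276). The 2 genes have near-identical neighbours, COR15B and KIN2, with which they can share reads. Those neighbours were higher as well, COR15B by 5.02 and KIN2 by 2.81.

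Of the 14 cold genes tested, 11 were higher and none lower (7 with the close pair summed), with a median of 1.70 against 0.01 over all genes. All 14 were above every other unsalted library, as were 55.1% of all genes tested. The dehydrin RAB18, which was lower in T43-11, is counted in the abscisic acid list and not here. The members that passed included the dehydrins COR47 (1.09), ERD10 (1.60), ERD14 (1.01) and LTI30 (1.41), the membrane proteins COR413PM1 (1.56) and COR413IM1 (1.803), and GOLS2 (1.85), a galactinol synthase. The CBF, DREB and ZAT regulators that act upstream of such genes were mixed. Of 8 tested, 5 were above and 3 below every other unsalted library, with a median of 0.21. CBF2 had 1.65 at a low level, 1.77 CPM in T43-11, and did not pass. In this list only TEM1, a repressor of flowering, passed, at -0.78, and not with the close pair summed. In the other lines none of the 8 was called with salt.

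**Figure D1:**
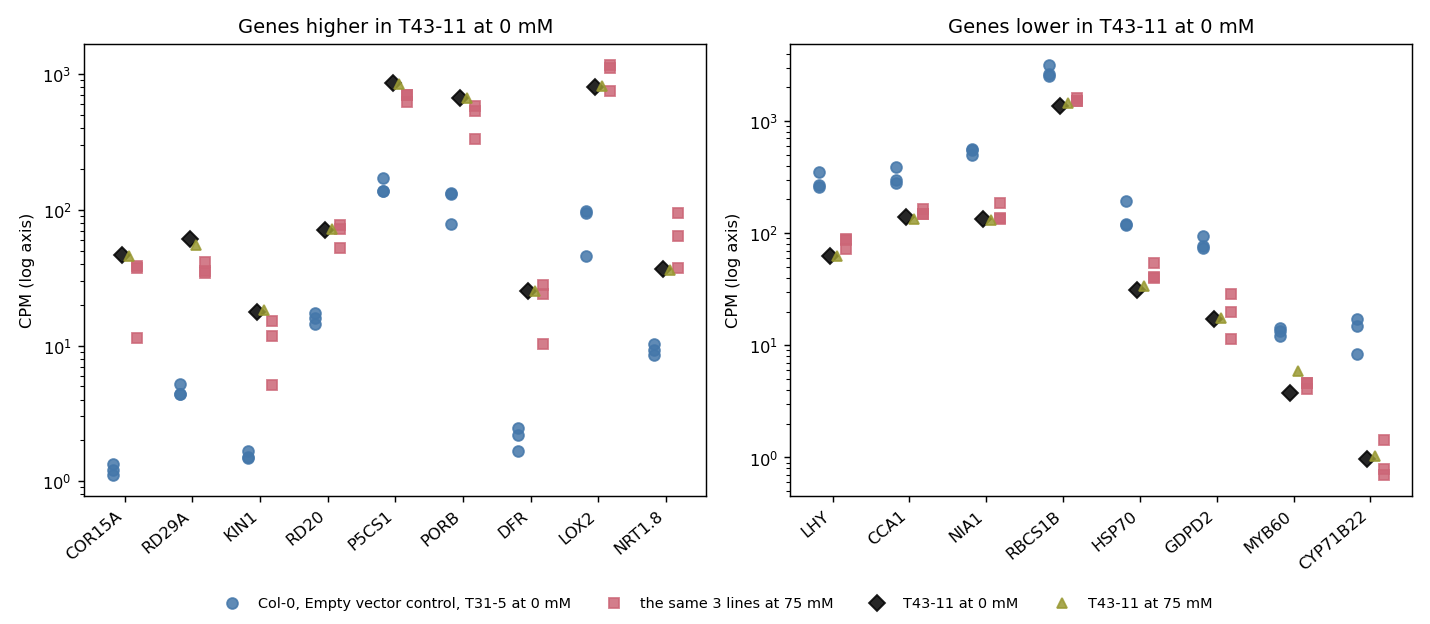
CPM on a log axis of 17 genes in each library: circles are Col-0, Empty vector control and T31-5 at 0 mM, squares the same lines at 75 mM, the diamond is T43-11 at 0 mM and the triangle T43-11 at 75 mM. For COR15A the unsalted circles lie at 1.104 to 1.338 CPM and T43-11 at 46.3, above the salted squares at 11.4 to 38.3 CPM. NRT1.8 in T43-11, at 36.9 CPM, is nearly level with the lowest salted square, at 37.3 CPM, and below the others.

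The abscisic acid and osmotic stress list moved in part. RD29A (AT5G52310), a classic reporter of drought, cold and abscisic acid with 3 CCGAC cores in the window above, was at 4.41, 4.39 and 5.24 CPM in the other unsalted lines and at 61.1 CPM in T43-11. T43-11 lay above the salted level of the other lines too, which was 34.4 to 41.3 CPM. Its difference to the unsalted lines was 3.54 ± 0.12 (edgeR adjusted p = 0.000792). RD20 (AT2G33380), a caleosin of drought-stressed leaves, was at 17.44, 15.95 and 14.35 CPM in the other lines and at 71.0 CPM in T43-11, and their salted level was 52.7 to 76.6 CPM. T43-11 without salt thus lay inside the salted range, with a difference to the unsalted lines of 1.99 ± 0.14 (edgeR adjusted p = 0.00523). Of 27 genes tested 10 were higher and 1 lower. Besides RD29A and RD20 the higher genes included RD22 (1.44), the ABRE-binding factor ABF1 (1.97), the PP2C genes HAI1 (1.33), PP2CA (0.72) and ABI1 (0.69), which damp the hormone signal, CYP707A1 (1.41), which breaks the hormone down, LEA4-5 (1.63) and the factor ATHB7 (1.04). RAB18 (AT5G66400), a dehydrin often used as an abscisic acid marker, was the lower member, at 29.6, 32.0 and 26.1 CPM in the other lines and 17.9 CPM in T43-11. NCED3, the enzyme of hormone synthesis, at 0.68, RD29B at 0.75 and the factors ABF2 and ABF3 at -0.04 and -0.16 did not pass.

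P5CS1 (AT2G39800), the controlling enzyme of proline synthesis, was at 170, 137 and 137 CPM in the other unsalted lines and at 862 CPM in unsalted T43-11. It lay above the salted level as well, which was 623 to 702 CPM, and differed from the unsalted lines by 2.37 ± 0.17 (edgeR adjusted p = 0.00523). ERD5, the proline dehydrogenase that breaks proline down, had -0.87, at 409 CPM against 635 to 712 CPM. Of the 6 proline genes tested these were the members that passed (P5CS1 alone with the close pair summed), and the direction of the list median depended on the scaling.

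Most morning clock genes were lower and some evening genes higher. LHY (AT1G01060) was at 350, 259 and 268 CPM in the other lines and at 62.6 CPM in T43-11, under their salted level of 71.7 to 89.2 CPM. The difference was -2.397 ± 0.27 (edgeR adjusted p = 0.0126). CCA1 (AT2G46830), its close relative, was at 386, 280 and 298 CPM and at 138 CPM in T43-11, a difference of -1.39 ± 0.25 (edgeR adjusted p = 0.0301). Both morning factors were lower than in any other unsalted line. Of 13 morning genes 9 were lower and 1 higher (7 and none with the close pair summed), with a median of -0.93. RVE8 (-1.62) and its coactivators LNK2 (-1.40), LNK3 (-1.02) and LNK4 (-0.93) were among the lower ones, and the pseudo-response regulator PRR9, the higher member, had 0.82.

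Of 14 day and evening genes 5 were higher and none lower (3 with the close pair summed), with a median of 0.73. GI, a light and clock protein of the afternoon, was at 15.9, 22.3 and 22.2 CPM in the other lines and 47.8 CPM in T43-11 (1.08). PRR5 (2.25), ELF3 (0.71), LUX (0.76) and the RNA-binding protein GRP7 (1.18) also passed, while TOC1 at 0.42 and ZTL at -0.13 did not. The evening element was in the promoter window of 57.1% of the 14 genes. FT, the flowering signal that the clock and day length control, was at 0.974, 1.82 and 2.35 CPM in the other lines and 0.161 CPM in T43-11, which is 3 reads in that library. Of 8 clock outputs, FT included, 3 were lower and none higher (1 with the close pair summed). The hour of harvest is not given in the labels, and its part in the clock genes was not tested.

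Many Calvin cycle genes were lower. Of 18 Calvin cycle genes 12 were lower and none higher, with a median of -0.75, and all 18 were below every other unsalted library, as were 23.3% of all genes tested. With the close pair summed 3 of the 18 passed. RBCS1B (AT5G38430), a small subunit of Rubisco, was at 3195, 2533 and 2655 CPM in the other lines and at 1369 CPM in T43-11, a difference of -1.20 ± 0.20 (edgeR adjusted p = 0.0256). T43-11 was thus lower than any salted library of the other lines, which lay at 1508 to 1599 CPM. The Rubisco small subunit genes are near-identical and can share reads. FBA2 and FBA1, chloroplast aldolases, also passed, at -1.19 and -1.17.

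Of 34 photosystem and antenna genes 8 were lower and none higher (none with the close pair summed), with a median of -0.35, PETE2, a plastocyanin, at -0.81 among them. PORB (AT4G27440), which makes chlorophyllide in the light, ran the other way, from 78.1, 132 and 131 CPM to 667 CPM in T43-11 (2.39 ± 0.25, edgeR adjusted p = 0.0120). GUN4, a regulator of the step that commits porphyrins to chlorophyll, was lower (-0.88), and of 14 chlorophyll synthesis genes 1 was higher and 2 lower (1 and none with the close pair summed). The 73 chloroplast-encoded genes tested had a median of -0.59 and the 44 mitochondrial ones a median of -0.71. Of these, 40 and 27 were below every other unsalted library, as were 23.3% of all genes tested. The share of mitochondrial genes that passed as lower was no larger than that over all genes. How RNA was selected for sequencing is not given in the labels.

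Several carbon reserve genes were higher. SEX1 and SEX4, which add and remove phosphate on starch so that it can be broken down, were higher by 1.08 and 1.67, and so were DPE2 (1.01), AMY3 (0.76) and BAM5 (2.399). SEX4 went from 6.77, 10.2 and 9.84 CPM to 31.7 CPM in T43-11. Other starch genes ran the other way without passing. The chloroplast beta-amylase AT4G17090 had -1.615, at 77.5 CPM against 168 to 289.8 CPM, and GBSS1 had -1.545, at 75.0 CPM against 159 to 260.5 CPM. The summed level of the starch list was 1115 CPM in T43-11 and 1057 to 1322 CPM in the other unsalted lines. Of 15 starch genes 6 were higher and 1, BAM9, an amylase-like protein, was lower at -1.26 (3 higher and 1 lower with the close pair summed). Among 12 sugar starvation genes 4 were higher and none lower (1 with the close pair summed): DIN2, a glucosidase induced in the dark, by 2.87, and the branched-chain amino acid enzymes BCAT2, DIN4 and MCCA by 1.304, 0.73 and 0.60. DIN2 was at 23.2, 14.3 and 12.7 CPM in the other lines and 139 CPM in T43-11.

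Some heat shock genes were lower. HSP70 (AT3G12580), a cytosolic chaperone, was at 196, 119 and 121 CPM and at 31.4 CPM in T43-11, under the salted level of 39.97 to 53.97 CPM. Its difference was -2.39 ± 0.41 (edgeR adjusted p = 0.0275). Of 19 genes tested 4 were lower and none higher (1 with the close pair summed), with a median of -1.47. HSFA2, the factor that sustains the heat response, was at 19.3, 6.96 and 5.84 CPM and 1.45 CPM in T43-11 and did not pass (-3.07, edgeR adjusted p = 0.103). Unsalted Col-0 was well above the other 2 lines in HSFA2, HSP101 and HSP90.1, with 107.9 CPM in HSP90.1 against 57.8 and 53.9 CPM.

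Some jasmonate genes were higher. LOX2 (AT3G45140), the leaf lipoxygenase that starts jasmonate synthesis, was at 45.6, 95.3 and 97.2 CPM in the other lines and 798 CPM in T43-11 (3.17 ± 0.35, edgeR adjusted p = 0.0127). CORI3, a cystine lyase induced by the hormone, was at 12.8, 13.4 and 13.5 CPM and 151 CPM (3.34 ± 0.08, edgeR adjusted p = 0.000399). T43-11 lay inside the salted range of the other lines for both genes, 749 to 1174 CPM and 128 to 185 CPM. NATA1 (3.75), JRG21 (3.35), VSP2 (2.403), VSP1 (1.61), CYP94B3 (1.801), AOC2 (0.93), AOC4 (0.85) and AOS (0.75) also passed. The JAZ repressors, early targets of the hormone, gave no higher member: JAZ10 was at 5.70, 5.67 and 5.66 CPM in the other unsalted lines, 5.30 CPM in T43-11 and 5.61 to 13.4 CPM with salt. JAZ6 (-1.19) and the chlorophyllase CLH1 (-1.26) were lower. Of 31 jasmonate genes 10 were higher and 2 lower (5 and 1 with the close pair summed). Of 24 salicylic acid and immunity genes none passed in either direction, and the unsalted lines differed among themselves: PR1 was at 0.186 CPM in Col-0, 17.7 CPM in Empty vector control, 13.4 CPM in T31-5 and 0.482 CPM in T43-11.

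Anthocyanin and flavonoid genes passed in both directions. The higher members other than DFR had means under 5 CPM over the 4 unsalted libraries, so their folds rest on low levels. DFR (AT5G42800), which opens the branch to anthocyanins, was at 1.67, 2.19 and 2.48 CPM in the other lines and 25.2 CPM in T43-11 (3.40 ± 0.18, edgeR adjusted p = 0.00335). LDOX (2.45), TT19 (3.105), UF3GT (2.80), the glucosyltransferase AT4G14090 (1.18), 5MAT (2.53) and the MYB factor PAP1 (AT1G56650, 3.06), which drives these steps, were the other higher members. CHS, the entry enzyme of flavonoids, had -0.09 and did not pass, while TT7 (-1.39) and PAL2 (-0.67) were lower. The lower members also included LBD37 (-0.83), LBD38 (-0.78) and LBD39 (-1.28), nitrate-induced factors that repress anthocyanin genes. Of 25 genes 7 were higher and 5 lower (3 and 2 with the close pair summed), and the sign of the list median changed with the scaling.

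Nutrient genes moved in both directions. Of those named here, NRT2.1, IPS1, RNS1, HAK5 and SKOR had means under 5 CPM over the 4 unsalted libraries, so their folds rest on low levels. NIA1 (AT1G77760), a nitrate reductase, was at 495, 558 and 559 CPM in the other lines and 133 CPM in T43-11 (-2.18 ± 0.12). T43-11 was nearly level with the lowest salted library, in a salted range of 134 to 187 CPM. The nitrate transporters NRT2.1 (3.36), NRT1.8 (1.798) and NRT3.1 (0.51) were higher and NRT1.1 (-0.75) lower, so that 3 of 8 nitrate genes were higher and 2 lower (2 and 1 with the close pair summed). The phosphate exporter relative PHO1;H1 was at 33.3, 35.1 and 33.6 CPM and 8.79 CPM in T43-11 (-2.12), GDPD2, a phosphodiesterase, had -2.404 and the non-coding IPS1 -2.18. RNS1, a ribonuclease of phosphate starvation, and the uptake carrier PHT1;1 were higher by 4.81 and 0.81, which made 2 of 17 phosphate genes higher and 3 lower. In the ion transport list 3 of 24 genes were higher and 5 lower (none and 1 with the close pair summed). The high-affinity potassium carrier HAK5 (3.49) and the vacuolar or endosomal exchangers NHX2 (0.78) and NHX6 (0.65) were the higher ones. The lower ones were the anion channel ALMT12 (-1.39), the potassium channels KAT1 (-1.07), KAT2 (-1.34) and SKOR (-2.03), and SLAH1, which had 1 read in T43-11 against 0.649 to 1.24 CPM. SOS1, the sodium exporter of the plasma membrane, was at 25.7, 25.4 and 25.2 CPM and 33.2 CPM in T43-11, and HKT1, which retrieves sodium from the xylem, at 2.92, 5.03 and 4.05 CPM and 2.57 CPM. Neither passed (0.21 and -0.79).

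Some cell wall genes were higher. Among 63 genes whose RefSeq product is a peroxidase, 23 were higher and 2 lower (7 and 2 with the close pair summed), with a median of 0.69. PRXCB, a peroxidase that releases reactive oxygen at the wall, was at 51.8, 89.5 and 87.4 CPM and 235 CPM in T43-11 (1.46), and AT4G36430 at 6.35, 9.15 and 9.66 CPM and 35.2 CPM (1.91). Of 150 genes with extensin or proline-rich wall products, a word match that also takes in ELF3, 28 were higher and 7 lower (13 and 3 with the close pair summed). EXT4, a wall glycoprotein, was at 250, 256 and 259 CPM and 1466 CPM in T43-11 (2.36), and EXT3 at 235, 333 and 349 CPM and 964 CPM (1.496). Of 66 lipid transfer genes 15 were higher and 6 lower (8 and 1 with the close pair summed), LTP2 by 2.97 and EARLI1 by 2.27. Among 22 expansins and XTH enzymes, which loosen or rebuild the wall, 4 were higher and 2 lower (3 and 1 with the close pair summed), XTH18 at 1.62 and XTH15 at -1.76.

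Some root markers were higher as well. The summed level of the root marker list was 1223 to 1290 CPM in the other unsalted lines, 2193 CPM in T43-11 without salt and 1609 to 2445 CPM in the salted lines, and PYK10, a root glucosidase, made up most of it, with 2095 CPM in T43-11. Of 13 root markers 4 were higher and none lower (1 with the close pair summed), with a median of 0.89: EXPA7 (1.55) and GL2 (0.89) of hair cell patterning and growth, CASP1 (1.03) of the endodermis and PYK10 (0.67). SCR and SHR at -0.36 and -0.25 did not pass. The part of root tissue in the wall, nitrate and potassium genes was not tested. ADH1, the alcohol dehydrogenase of fermentation, was at 20.8, 50.4 and 50.7 CPM in unsalted Col-0, Empty vector control and T31-5, 136 CPM in T43-11, and 38.9, 128 and 145 CPM in the same 3 lines with salt. T43-11 lay between salted Empty vector control and salted T31-5 and above salted Col-0. ADH1 did not pass (1.58, edgeR adjusted p = 0.0674), and of 6 genes in its list only AT4G17260, a lactate or malate dehydrogenase, did (0.70), and none with the close pair summed.

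The other groups are mostly short lists, in which few calls can be a large share. Guard cell genes had 2 of 6 lower (1 with the close pair summed), KAT1 and the factor MYB60, which was at 14.3, 13.5 and 12.1 CPM and 3.75 CPM in T43-11 (-1.99), while FAMA and TMM of the guard cell lineage did not pass (-0.32 and -0.31). All 6 guard cell genes were below every other unsalted library, as were 23.3% of all genes tested. The summed level of the 6 genes was 62.0 to 67.7 CPM in the other unsalted lines, 42.2 CPM in T43-11 and 32.3 to 41.8 CPM in the salted lines. The part of guard cells in KAT1 and ALMT12 was not tested. Aquaporins had 2 of 19 higher, PIP2;5 (1.25) and TIP4;1 (1.07), and none with the close pair summed. Of 15 auxin response genes 1 was lower, IAA7 (-1.01), and none with the close pair summed. Aliphatic glucosinolate genes had 3 of 14 lower (1 with the close pair summed), the regulator MYB28 (-0.79) among them, and of 8 indole glucosinolate genes none passed. Of 12 reactive oxygen scavenging genes 2 were higher and 2 lower (none and 1 with the close pair summed), and of 9 cell division genes 1, KNOLLE (0.70), was higher (none with the close pair summed). In the iron lists NAS2 (0.90), PDR9 (0.72) and ZIF1 (0.51) were higher and NAS3 (-2.17), YSL1 (-1.24) and FER3 (-0.89) lower, where the close pair summed left 1 higher and 2 lower. Cytosolic ribosomal proteins had a median of -0.23 over 159 genes tested, and the share of them that passed as lower was near that over all genes. Of 7 reference genes ACT2 (-0.67) was lower, but not with the close pair summed, and the others did not pass. Flower markers gave no call among 4 tested, and no seed storage gene had enough reads to be tested.

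**Figure D2:**
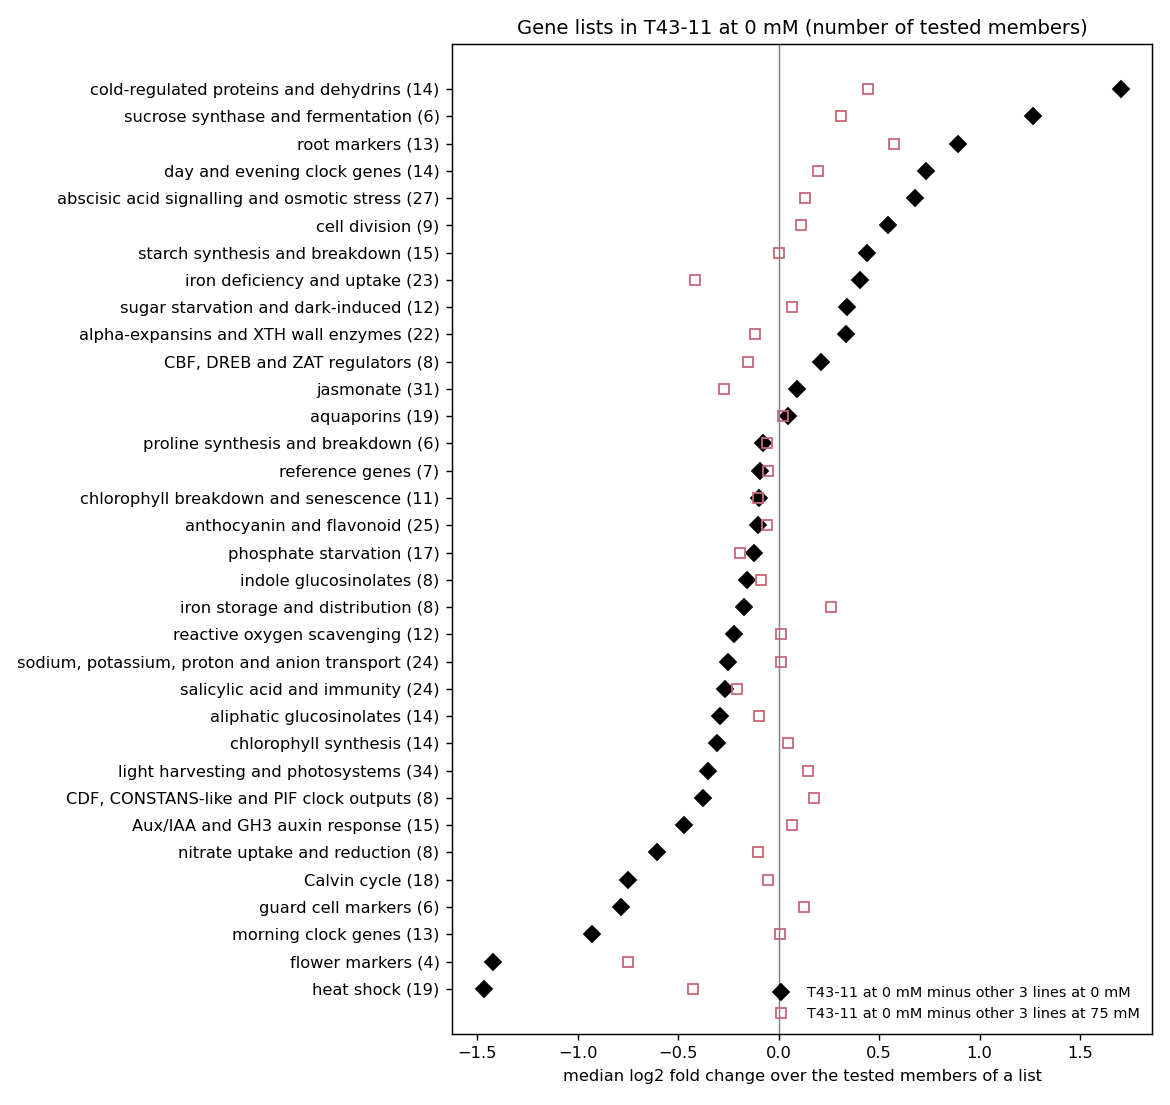
Median log2 fold change over the tested members of each gene list, for T43-11 at 0 mM against the other 3 lines at 0 mM (diamonds) and at 75 mM (squares), with the number of tested members in brackets. The diamonds run from -1.47 for heat shock to 1.70 for the cold list, while the squares of these lists lie at -0.43 and 0.45.

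Among the called genes whose mean level reached 5 CPM and whose level in T43-11 lay outside the range of the other 3 lines, COR15A had the largest rise and TH8, a thioredoxin, followed at 4.43 ± 0.14. TH8 was at 1.72, 1.82 and 1.52 CPM in the other lines and 40.7 CPM in T43-11. Next came AT2G16660, a transporter-like membrane protein (3.90), NATA1, RD29A, BGLU45, a glucosidase of lignin precursors (3.46), DFR, JRG21, KIN1 and CORI3. Under the same limits the lower genes were led by CYP71B22, a cytochrome P450, at 8.35, 17.29 and 14.99 CPM and 0.964 CPM in T43-11 (-3.96 ± 0.55, edgeR adjusted p = 0.0196). It was followed by AT1G70985 (-3.55), AT2G26695 (-3.35), AT3G16670 (-2.99), the receptor kinase CRK30 (-2.93), the transporter ABCG27 (-2.75), the phloem lectin PP2-A5 (-2.70), AT3G43850 (-2.66), AT1G13650 (-2.54) and AT3G06145 (-2.48). Larger folds that did not pass were left out of this order, such as PR1 (-4.55) and AT3G01345 (-7.13), which differed widely among the other lines.

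The salted libraries of Col-0, Empty vector control and T31-5 show which functions stood at the level of salt. In these 3 lines 2970 genes were higher and 3172 lower with salt (14.4% and 15.4% of genes, by the same edgeR test blocked on line), and 42.6% had an unadjusted p under 0.05. Without Empty vector control these counts were 828 and 1228, and without T31-5 1467 and 1718. This comparison shares the 3 unsalted libraries with the comparison above, so the 2 sets of values are given side by side and their overlap is not used. Against the salted libraries themselves, no gene of unsalted T43-11 passed in either direction (0.0% of 20585 genes in edgeR and 0 genes in DESeq2), and 121 genes (0.588%) had an unadjusted p under 0.05, 33 in DESeq2. The biological coefficient of variation was 15.4% in this fit and 11.9% in the unsalted one. The share of 0.588% is far under what a p threshold of 0.05 gives where nothing differs, so the test was strict here. The lack of calls therefore does not measure how close T43-11 was to the salted level. A p that misses the threshold does not show that the levels were equal. The genes with the smallest p in each direction were ARP9, RD29A (0.71), AT1G76590 (0.51) and AT3G47160 (0.39) on the higher side and CYP81D8 (-0.69), AT4G04223 (-1.31), LOX4 (-1.18) and B120 (-0.97) on the lower. Where the mean level reached 5 CPM, 17 genes were 2-fold away from the salted level, 3 higher and 14 lower, against 374 higher and 424 lower that were 2-fold away from the unsalted level. The 3 higher ones were ARP9, EXT12, a wall glycoprotein, and RHS19, named for root hair expression. Of the 14 lower ones, AT3G01345 had 137 and 86.0 CPM in Col-0 and under 1 CPM in every other library.

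**Figure D3:**
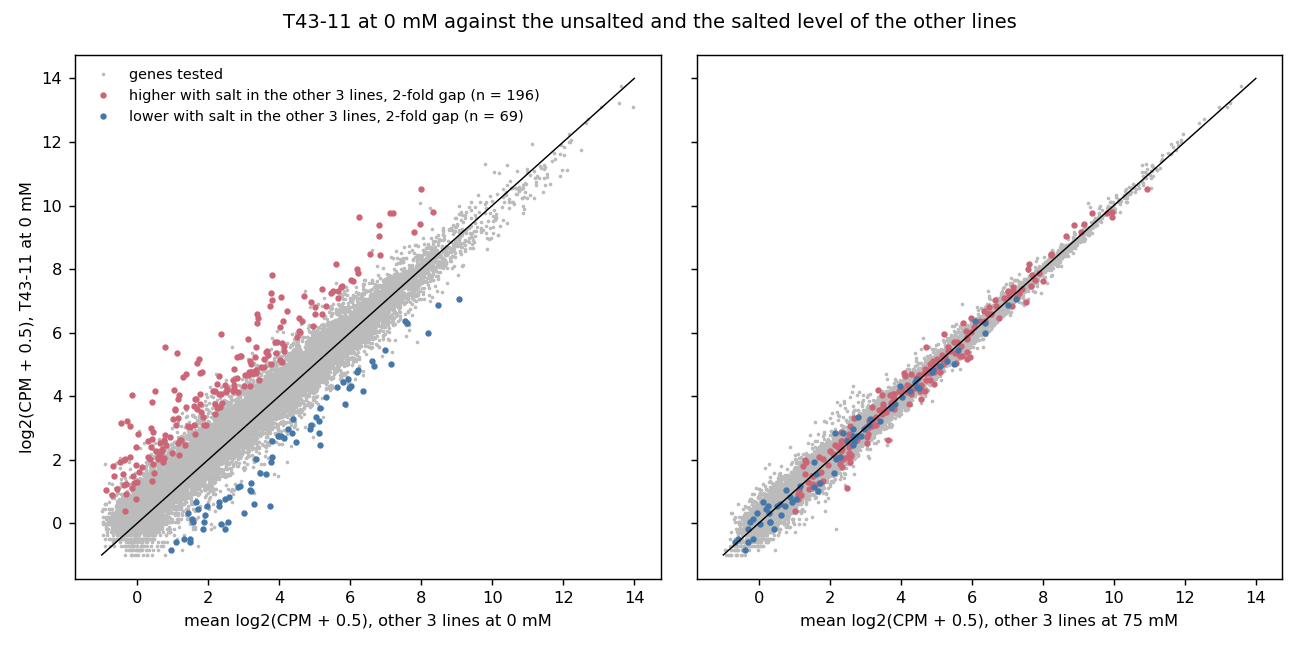
Level of each of 20585 genes in T43-11 at 0 mM, as log2(CPM + 0.5), against the mean of the other 3 lines at 0 mM (left) and at 75 mM (right), with the line of equality. The 196 genes higher and 69 genes lower with salt by a 2-fold gap lie off the line on the left and along it on the right.

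Some genes separate the salted from the unsalted libraries of the other lines by a gap of at least 2-fold, 196 of them higher with salt and 69 lower (0.952% and 0.335% of genes, on CPM plus 0.5). Unsalted T43-11 reached the nearest salted library for 161 of the 196, which is 82.1%, and for 60 of the 69, which is 87.0%. It stood between the groups for the other 35 and 9, and at the unsalted level for none. T43-11 at 75 mM, which the choice of genes did not use, reached the salted level for 167 and 56. It was almost the same as the 0 mM library throughout, so this is no separate check. Without Col-0 there were 450 and 175 such genes, with 324 and 136 at the salted level. The shares rested on T31-5: without this line at both salt levels there were 357 and 107 such genes, and T43-11 reached the salted level for 43.4% and 62.6% of them. The genes of the cold list (6 of 6), abscisic acid (3 of 3), anthocyanin (3 of 3) and jasmonate (5 of 5) lists that showed such a gap were all at the salted level with T31-5 included. So were the extensin (3 of 3) and pectin enzyme (3 of 3) genes higher with salt. Beside the 82.1% over all genes higher with salt, these small numbers do not set the lists apart. Of lipid transfer genes 5 of 6 were, of expansins and XTH enzymes 2 of 3, and of nitrate genes 1 of 2. ACGTG was in the promoter window of 35.6% and CCGAC of 18.1% of the 160 nuclear protein-coding genes among the 161, against 23.8% and 12.8% of the windows of all tested genes. In the 59 such genes lower with salt the shares were 23.7% and 16.9%.

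Some genes stopped short of the salted level. NRT1.8 (AT4G21680), which takes nitrate back out of the xylem, was at 36.9 CPM in unsalted T43-11 and at 94.4, 64.6 and 37.3 CPM in salted Col-0, Empty vector control and T31-5. That was far under salted Col-0 and Empty vector control but nearly level with salted T31-5. CPM leaves out the TMM factors, and those of unsalted T43-11 (1.0394) and salted T31-5 (1.0603) differed by more than this gap. XTH19 (26.6 CPM against 29.8 to 36.7 CPM), the vacuolar sulfate exporter SULTR4;2 (20.1 CPM against 21.7 to 24.9 CPM) and the factor MYB15 (3.16 CPM against 3.64 to 5.46 CPM) lay just under the lowest salted library. T43-11 at 75 mM also stopped short in these genes. It had 36.25 CPM for NRT1.8, 29.54 CPM for XTH19, 20.18 CPM for SULTR4;2 and 2.505 CPM for MYB15. Iron deficiency genes differed between the salted lines themselves. BHLH39, a factor of the iron uptake response, was at 5.47, 6.37 and 6.53 CPM without salt, 17.76 and 9.18 CPM in salted Col-0 and Empty vector control, 5.00 CPM in salted T31-5 and 5.30 CPM in unsalted T43-11. OPT3, which loads iron into the phloem, was at 116 CPM in T43-11 and at 291, 182 and 104 CPM in the salted lines. T43-11 lay next to salted T31-5 and under the other 2 salted lines in both genes. The median of the 23 iron deficiency genes was -0.42 against the salted level and 0.41 against the unsalted one. JAZ10, WRKY18, a defence factor at 28.3 CPM in T43-11 and 97.1, 50.5 and 25.7 CPM in the salted lines, and XTH33, at 13.8 CPM in T43-11 and 54.9 and 25.1 CPM in salted Col-0 and Empty vector control, had the same order of salted lines.

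ARP9 (AT5G43500), an actin-related protein on chr5:17469490-17473619 (TAIR10.1, plus strand), was the only gene at least 2-fold outside all 6 libraries of the other lines (0.00486% of genes). It was at 12.4, 12.5 and 12.4 CPM without salt and 10.5, 12.5 and 11.8 CPM with salt in Col-0, Empty vector control and T31-5, and at 25.6 CPM in T43-11 at 0 mM. The 6 other libraries formed 1 narrow band, with no gap between salted and unsalted ones, and T43-11 stood above it. T43-11 at 75 mM, which the choice did not use but which was almost the same as the 0 mM library throughout, had 28.5 CPM. Against the unsalted lines the difference was 0.87 ± 0.11 (edgeR adjusted p = 0.0139), and against the salted lines 1.14 ± 0.12 with an unadjusted p of 0.000305 and an edgeR adjusted p of 0.9997. On CPM scaled by TMM factors the gap was under 2-fold and no gene met the rule, and without T31-5 the rule was met by 31 genes. Of the 4 tested genes on each side of ARP9 none passed, AT5G43490 being the neighbour furthest from 0 at -1.48 with under 1 CPM in every library. The position of the transgene of T43-11 was not analysed here.

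**Figure D4:**
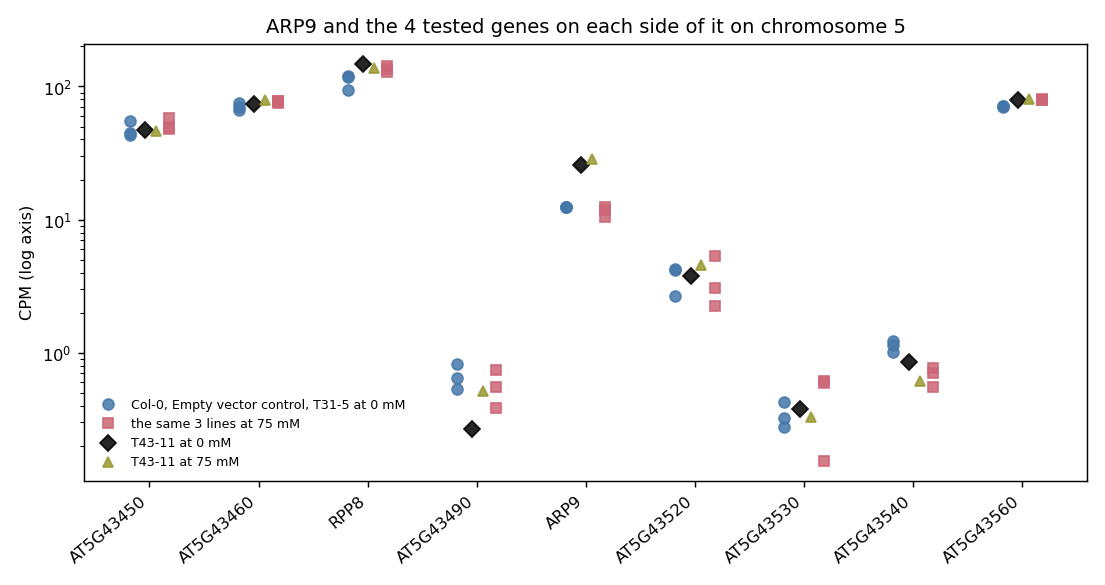
CPM on a log axis of ARP9 and the 4 tested genes on each side of it in chromosome order: circles are the other 3 lines at 0 mM, squares the same lines at 75 mM, the diamond T43-11 at 0 mM and the triangle T43-11 at 75 mM. For ARP9 both T43-11 libraries, at 25.6 and 28.5 CPM, lie above all other libraries, while its neighbours overlap or differ little between lines.

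A gap of 1.5-fold, chosen after the data were seen, left 14 genes above and 7 below all 6 other libraries (0.068% and 0.034% of genes), and 14 and 5 of these were also outside in T43-11 at 75 mM. That library was almost the same as the one at 0 mM, so this is no separate check. Most were low, and ARP9 and AT2G16005, a lipid recognition domain protein at 6.38 CPM against 0.769 to 3.59 CPM, were the ones that reached 5 CPM. CBF2 (AT4G25470), a CBF factor that binds the CCGAC core, was at 1.77 CPM against 0.278 to 0.782 CPM. MRN1, which makes the root triterpene marneral, was at 3.16 CPM against 0 to 1.62 CPM.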

How the data were processed

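TopHat2 2.0.5, HTSeq and the build TAIR10 are named in the submitters' processing notes, per the labels. The authors deposited raw counts per gene for 8 libraries. Per the labels' protocols, plants were kept in RNA Later and libraries followed the standard Illumina preparation. Strand use in counting: not given in the sources used here. Antisense and overlapping genes cannot be told apart. Of the deposited rows, 32678 are genes, 2 are added rows and 5 are summary rows, which were left out of library sizes (2.49% to 2.60% of reads). Of the gene IDs 31912 (97.7%) matched RefSeq TAIR10.1, which gave names, products and promoters.

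CPM was computed over gene rows, as reads divided by all gene reads of the library. Genes with at least 0.468 CPM in 2 libraries were tested with edgeR 4.0.16 (TMM factors, quasi-likelihood test, Benjamini-Hochberg adjustment over all 20585 genes) in R 4.3.3, with limma 3.58.1. DESeq2 1.42.0, other scalings, no filter, leaving out libraries, 1 fit of all libraries and the close pair summed were alternatives. The fit was tested on simulated data. Gene lists (35, with 538 genes) and 20 families matched by product name, and the comparison itself, were chosen with earlier results of these data known. Named genes were, per comparison and direction, up to 10 with the largest fold among those called at a mean of 5 CPM and outside the range of the others, up to 4 of each list, RD29A, COR15A, LHY and CCA1. Further list members that passed, and some that did not, were named after their values were seen. Tables and figures used Python 3.11.15, numpy 2.4.6, pandas 2.3.3, scipy 1.17.1 and matplotlib 3.10.9. Intervals on counts are exact 95% Poisson limits and cover counting error only.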

Additional observations from a re-analysis of the deposited data

Results flagged for a closer look

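Reads on the added row T43, which is no Arabidopsis gene row, stood at 32.47 CPM in T43-11 at 0 mM (606 reads, exact 95% Poisson interval 29.9 to 35.2 CPM), while the other 3 unsalted libraries had 0 reads, with upper limits of 0.171, 0.198 and 0.170 CPM. Reads on the added row T31 stood at 26.79 CPM in T43-11 at 0 mM (500 reads, 24.5 to 29.2 CPM), above 4.44 CPM in Empty vector control, 4.88 CPM in T31-5 and 0 reads in Col-0. These rows entered no comparison, and the sources used here do not say what they stand for.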

How the results depend on the processing

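Of 156 named results 98 were called, 54 kept their direction and their side of the threshold under every alternative, none reversed, and 47 lost the call under some. For the unsalted comparison, library size alone gave 2467 higher genes, summing the close pair gave 468 higher and 310 lower, and leaving out a line gave 443 to 4850 higher and 313 to 5209 lower. Of the calls, 29.8% were kept without Empty vector control, 35.7% without T31-5, 30.9% with the pair summed and 76.1% in DESeq2. Against the salted lines the count of calls was 0 under every alternative, with 21 to 444 genes at an unadjusted p under 0.05. For salt in the other lines, library size alone gave 5513 higher and 1988 lower, DESeq2 gave 1817 higher, and leaving out a line gave 828 to 3898 higher and 1228 to 4044 lower.

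In that salt comparison the line pairs the salt levels, and without the replicate block it gave 2500 higher and 2477 lower genes. No paired analysis was possible for T43-11 against the other lines because T43-11 has 1 library at each salt level.

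A gap of 3-fold left 47 genes higher with salt, 44 at the salted level, and 8 lower, 8 at it. A pseudocount of 2 CPM left 113 with 101, and 39 with 36. On CPM scaled by TMM factors there were 155 higher with 130 at the salted level, and 100 lower with 87, so the excess of higher genes shrank. Leaving out a line gave 255 to 450 higher with 155 to 324 at the salted level (43.4% to 77.2%), and 94 to 175 lower with 67 to 136 (62.6% to 77.7%). Genes above all 6 libraries numbered 0 with TMM scaling, a 3-fold gap or a pseudocount of 2 CPM, 2 to 31 without a line, and 14 (7 below) at the added 1.5-fold gap. The sign of the median turned with library size alone for the proline, chlorophyll breakdown, anthocyanin, phosphate, indole glucosinolate and reference lists. The causes were not tested. The single T43-11 library, the 2 residual degrees of freedom and the close pair limit every p.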
